A study of Mus musculus with 14 samples.

Results

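Most Brg1 peaks of fetal liver progenitors were called both with EBF1 that lacks its C-terminal domain and with wild-type EBF1, while 6288 peaks were gained and 4808 were lost without the domain. Both sets were taken from lists of ChIP-seq peaks (GRCm38) on chromosomes 1 to 19, X and Y. A lost peak is a peak of the wild-type (wt) list that shares no base with any peak of the list for EBF1 without the domain (dC). A gained peak is a dC peak that shares no base with any wt peak. The dC list held 30301 peaks and the wt list 29354, or 59655 of the 196179 peaks in the 9 lists of the series.

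All fetal liver cells in this comparison were Ebf1 -/- on a C57BL/6 background. Livers of embryos at day 16 to 18 gave c-kit+ progenitors, which received a pMys retroviral vector that also encodes GFP. The vector carried EBF1 dC in the first group and EBF1 wt in the second. The other 3 fetal liver vectors carried EBF1 dPLD, which lacks residues 480 to 520, EBF1 F-GATA3, in which the TA1 domain of GATA3 takes the place of the C-terminal domain, or no EBF1 (empty). Cultures ran for 14 to 20 days over OP9 stromal cells with IL7 at 5 ng/ml and SCF and Flt3 at 10 ng/ml each. Per the labels, the dC and dPLD cells were partly arrested ahead of the pro-B stage, the wt and F-GATA3 cells were at that stage, and the empty-vector cells were arrested ahead of it. The form of EBF1 and the stage of the cells therefore differ together between dC and wt, and their parts in a difference cannot be told apart. Each group had 1 library, so no test was made between conditions and the spread among replicates is unknown. The labels describe 1 fetal liver input, from cells with EBF1 wt.

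EBF1 is a DNA-binding factor that early B-cell development requires, and its C-terminal domain lies outside the part that binds DNA. Brg1, the product of Smarca4, is the ATPase of BAF complexes, which slide and evict nucleosomes so that other factors can reach DNA. In pro-B cells the immunoglobulin heavy chain locus, Igh, is recombined, and the kappa light chain locus, Igk, follows at the next stage.

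A marker of early B cells carried Brg1 peaks in both lists. Within the gene body extended by 10 kb, Cd79b, a signalling chain of the B-cell receptor, held 6 dC and 6 wt peaks, and none was lost or gained. Cd79b was chosen after its values were seen, and other genes of its list differed between dC and wt. The 20 genes of the pre-B-cell receptor and its signalling held 120 dC and 120 wt peaks, with 17 gained and 13 lost. Among them, Igll1 held 1 dC and 4 wt peaks, and Lyn 9 dC and 6 wt peaks. Of 14 stromal genes that could mark OP9 cells, 5 had a dC peak and 4 a wt peak. Col1a1, Acta2, Vim and Fstl1 held 1 peak in each list, and Thbs1 held 1 dC and 0 wt peaks. The others, among them Pdgfra, Pdgfrb, Col1a2 and Cxcl12, had none in either list.

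Sequence was available for promoter windows, and the promoters shown here are those where a lost or gained Brg1 peak sat on a gene start. RefSeq (GRCm38.p6) gives 32817 such windows of 300 bases, which run from 250 bases before to 50 after the start, on chromosomes 1 to 17, 19, X and Y. The first 4 are the promoters with the highest wt fold among those where a lost peak covers the EBF1 palindrome (TCCC and GGGA with 2 bases between them) and an EBF1 wt peak of A-MuLV cells is also present. Each is written 5′ to 3′ on the strand of its gene, and capitals mark the palindrome. They lie at chr10:78092831-78093130 (minus strand) for Gm30039, a long non-coding RNA gene, at chr14:54431348-54431647 (plus strand) for Mmp14, which encodes a membrane-bound matrix metalloproteinase, at chr7:44836038-44836337 (plus strand) for Il4i1, which encodes a secreted amino acid oxidase, and at chrX:101268206-101268505 (minus strand) for Il2rg, which encodes the receptor chain shared by IL-7 and related cytokines.
Gm30039: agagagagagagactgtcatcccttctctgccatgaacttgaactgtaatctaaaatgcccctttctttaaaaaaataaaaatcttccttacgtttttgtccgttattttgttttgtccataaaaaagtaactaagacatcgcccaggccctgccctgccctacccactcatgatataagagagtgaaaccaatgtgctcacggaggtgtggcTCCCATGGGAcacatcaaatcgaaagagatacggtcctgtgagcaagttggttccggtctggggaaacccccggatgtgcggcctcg
Mmp14: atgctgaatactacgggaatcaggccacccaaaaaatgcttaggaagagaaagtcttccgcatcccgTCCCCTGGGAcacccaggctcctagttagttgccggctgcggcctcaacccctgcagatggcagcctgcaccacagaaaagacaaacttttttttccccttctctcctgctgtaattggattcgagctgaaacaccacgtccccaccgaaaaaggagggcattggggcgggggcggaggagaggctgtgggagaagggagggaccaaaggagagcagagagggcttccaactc
Il4i1: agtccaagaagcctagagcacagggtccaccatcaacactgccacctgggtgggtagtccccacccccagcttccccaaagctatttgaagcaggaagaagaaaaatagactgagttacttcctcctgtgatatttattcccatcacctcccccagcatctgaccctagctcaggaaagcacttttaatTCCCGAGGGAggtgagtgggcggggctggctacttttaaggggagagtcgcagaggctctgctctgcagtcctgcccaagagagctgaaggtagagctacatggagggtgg
Il2rg: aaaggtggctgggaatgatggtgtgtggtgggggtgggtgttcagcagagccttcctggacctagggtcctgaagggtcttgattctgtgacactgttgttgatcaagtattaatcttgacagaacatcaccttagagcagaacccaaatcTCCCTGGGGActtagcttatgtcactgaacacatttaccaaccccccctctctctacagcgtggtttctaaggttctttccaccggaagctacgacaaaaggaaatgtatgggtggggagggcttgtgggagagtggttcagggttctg
The fifth is the promoter with the highest dC fold among the gained promoters of the gene lists used here, that of Lck, a kinase of T-cell receptor signalling, at chr4:129558323-129558622 (minus strand). Capitals mark the ETS family core GGAAGT, which PU.1 also binds.
Lck: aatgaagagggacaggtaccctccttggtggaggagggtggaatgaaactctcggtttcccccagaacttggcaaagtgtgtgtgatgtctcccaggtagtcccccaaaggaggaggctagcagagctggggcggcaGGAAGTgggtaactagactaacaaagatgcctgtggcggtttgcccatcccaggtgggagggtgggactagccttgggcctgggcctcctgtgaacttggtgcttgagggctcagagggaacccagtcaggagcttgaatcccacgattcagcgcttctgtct

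The palindrome began 37 bases ahead of the start in Gm30039, 183 in Mmp14, 61 in Il4i1 and 99 in Il2rg. It lay 63, 2, 17 and 46 bases from the summit of the lost wt Brg1 peak, in the same order. Those wt peaks had fold enrichments of 17.1, 9.27, 8.06 and 7.10 over the local background, as the authors' peak caller gave them, and the dC list had no peak there. All 4 promoters also carried a Brg1 peak in the dPLD and F-GATA3 lists and none in the empty list. EBF1 peaks of A-MuLV cells, a virally transformed pro-B line, were present at all 4 with both EBF1 forms. The wt EBF1 peaks were part of the choice of these promoters. An A-MuLV Brg1 peak was present with both forms at Gm30039 and Mmp14 and with neither at Il4i1 and Il2rg. None of the 4 thus repeated the loss with dC in A-MuLV cells.

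Across all windows, the palindrome was found, on either strand, in 13 of 412 promoters with a lost peak and no other dC or wt peak (3.16%, exact 95% interval 1.69 to 5.34%). It was found in 112 of 10870 promoters with a peak kept in both lists (1.03%, 0.849 to 1.24%) and in 297 of all 32817 (0.905%). None of the 683 promoters with only a gained peak held it, which allows a share of up to 0.539%. In 11 of the 13 promoters the match lay inside the lost peak, and 7 of the 13 overlapped an EBF1 wt peak. A Brg1 peak was called at 6 of the 13 with dPLD, at 7 with F-GATA3 and at 1 with the empty vector. The shorter core (CCC and GGG with 2 bases between them), which every palindrome contains, was in 19.7% of lost, 18.7% of kept and 15.7% of gained promoters, so the kept share lay inside the counting interval of the lost one (15.9 to 23.8%). The GATA family core AGATAA was in 6.59% of gained, 9.71% of lost and 5.18% of kept promoters, against 11.2% of all windows. The ETS core was in 27.4% of gained, 27.7% of lost and 30.2% of kept promoters, against 23.8% of all windows. Base composition moved with these classes: median GC was 57.3% in lost, 59.0% in gained and 62.0% in kept promoters, against 52.7% in all windows, and its part in the shares was not tested. A match is a stretch of letters and not a measured binding site. Lost and gained peaks were mostly away from gene starts: 9.39% of gained peaks against 34.2% of the remaining dC peaks met a promoter window, and 7.42% of lost peaks against 33.1% of kept wt peaks did.

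Lost peaks made up 16.4% of the wt list and gained peaks 20.8% of the dC list. The counting intervals were 16.0 to 16.8% for lost and 20.3 to 21.2% for gained peaks. These and all other intervals are exact Clopper-Pearson 95% intervals, hold counting error alone, so they speak of these libraries and not of the conditions. Gained peaks were weaker than the dC peaks that overlap wt, with a median fold of 5.61 against 7.79 and a median width of 751 against 1423 bp. Lost peaks were likewise weaker than kept wt peaks, with a median fold of 5.81 against 7.62 and a median width of 636.5 against 1219 bp. The lists also differ in the ground they cover, since dC peaks had a median width of 1248 bp and covered 45.1 Mb while wt peaks had a median of 1103 bp and covered 38.4 Mb. Sequencing depth is unknown, so Brg1 may be present where no peak was called.

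Loss and gain were concentrated among weak peaks, and with only peaks of −log10 q of at least 20 counted, 1145 were gained (6.13%) and 1215 lost (6.76%). In the highest decile of dC peaks by fold (12.8 and above), 34 of 3030 were gained, and in the second lowest decile 48.8% were. In the highest decile of wt peaks (13.0 and above), 71 of 2936 were lost, against 34.99% in the second lowest decile. Across chromosomes the lost share ran between 13.1% on chromosome 14 and 21.3% on chromosome 6, apart from chromosome Y, where 0 of 10 wt peaks were lost. Chromosome 6 holds Igk. Many of these peaks had a neighbour in the other list, since 54.2% of gained peaks lay within 10 kb of a wt peak and 44.1% of lost peaks within 10 kb of a dC peak.

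**Figure D1:**
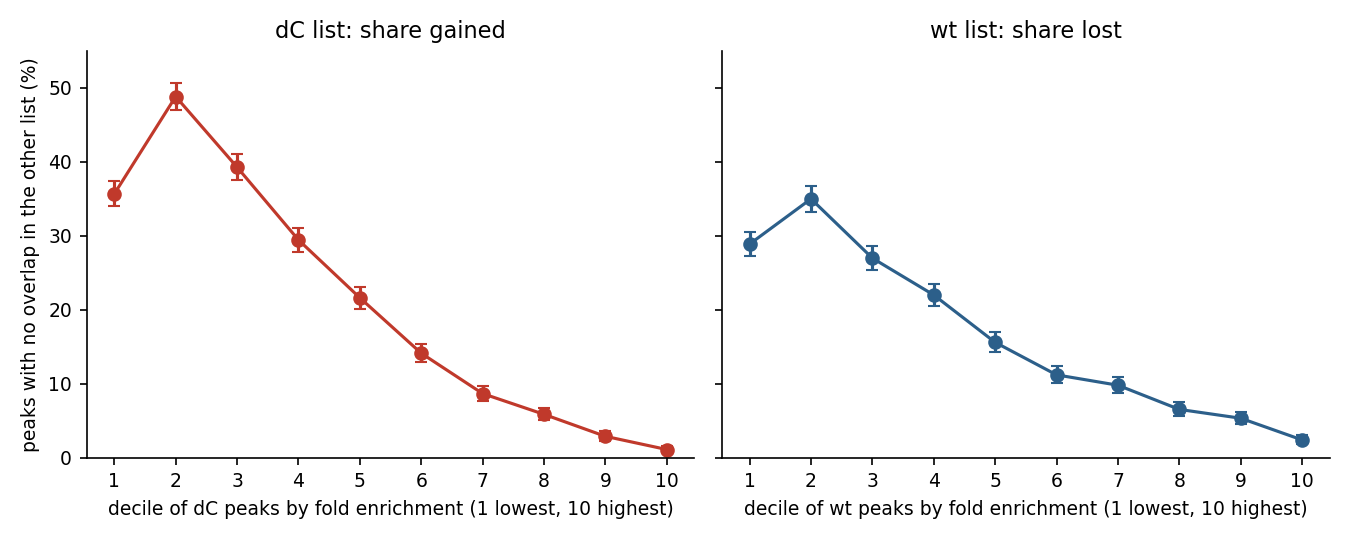
Share of dC peaks gained over wt (left) and of wt peaks lost with dC (right), in percent, by deciles of the authors' fold enrichment within each list. Points are shares with exact 95% intervals. In both lists the share peaks in the second decile, at 48.8% and 34.99%, and is lowest in the highest decile, at 1.12% and 2.42%.

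The other fetal liver libraries, which the choice of peaks did not use, divided the gained and lost peaks in different ways. Of the gained peaks, 40.7% were called with dPLD (39.5 to 41.9%), 21.9% with the empty vector (20.9 to 22.9%) and 16.1% with F-GATA3 (15.2 to 17.0%). Of the lost peaks, 43.7% were called with F-GATA3 (42.3 to 45.1%), 32.1% with dPLD (30.7 to 33.4%) and 7.43% with the empty vector (6.70 to 8.20%). Gained peaks were thus found more often with dPLD, and lost peaks more often with F-GATA3, whose cells share the pro-B label with wt. These lists differ in size, with 27550 dPLD peaks over 43.35 Mb, 25072 F-GATA3 peaks over 33.58 Mb and 17687 empty peaks over 19.59 Mb. The part of list size in these shares, and in the later counts for these lists, was not tested. Peaks called with both dC and wt were found more often in each of these lists, least so for gained peaks and the empty vector, where the share was 42.1% of all remaining dC peaks. Among remaining dC peaks weighted to the folds of the gained ones, the shares were 86.0% for dPLD, 27.2% for the empty vector and 71.8% for F-GATA3. Among kept wt peaks weighted to the folds of the lost ones, they were 71.3% for F-GATA3, 88.3% for dPLD and 32.1% for the empty vector. Of the gained peaks 2735 (43.5%), and of the lost peaks 1932 (40.2%), were called in none of these 3 libraries. Their median folds were 5.48 in the dC list and 5.46 in the wt list, below the list medians of 7.14 and 7.20.

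The A-MuLV libraries gave a second view of the same pair of EBF1 forms. Of the gained peaks, 718 (11.4%) had an A-MuLV Brg1 peak with dC alone and 226 (3.59%) with wt alone. The remaining dC peaks had much the same share for dC alone (11.7%) and a higher one for wt alone (7.52%). Of the lost peaks, 201 (4.18%) had one with dC alone and 832 (17.3%) with wt alone. Among kept wt peaks the shares were 11.8% for dC alone and 7.48% for wt alone. Of these 4 shares, that of lost peaks with wt alone was above the share in its comparison set. The A-MuLV Brg1 lists reach down to a −log10 q of 1.33 with dC and 1.37 with wt, while the fetal liver lists begin at 10.0. A-MuLV cells were fixed for Brg1 with 1% formaldehyde and fetal liver cells with 2%, both with EGS, and the part of these differences in the shares was not tested. Most gained peaks (80.3%) and lost peaks (70.8%) met no A-MuLV Brg1 peak of either form.

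EBF1 peaks of A-MuLV cells marked a further division. Of the 478 fetal liver wt Brg1 peaks at a place where EBF1 was called with wt alone, 289 were lost with dC (60.5%, 55.9 to 64.9%). Where EBF1 was called with dC alone, 10.1% of 2643 wt Brg1 peaks were lost. Where both forms were called 18.4% of 3442 were lost, and 15.9% of 22791 were lost away from any EBF1 peak. The high share at wt-alone places was present among weak and strong Brg1 peaks, at 78.1% below and 48.6% at or above the median wt fold. Split in the same way, the lost shares were 40.4% and 10.8% where both forms were called. They were 20.7% and 3.84% at dC-alone places, and 24.25% and 5.49% away from any EBF1 peak. Places with both forms thus lost a larger share than places with neither among peaks on the same side of the median. Gained shares were lower at EBF1 peaks, with 8.56% of 2651 dC Brg1 peaks gained where EBF1 was called with dC alone, 3.65% of 192 where it was called with wt alone, 2.31% of 2854 where both were called and 24.3% of 24604 gained where neither was. EBF1 and Brg1 were measured in different cells here, and the EBF1 lists differ in length, with 11147 dC and 6155 wt peaks.

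**Figure D2:**
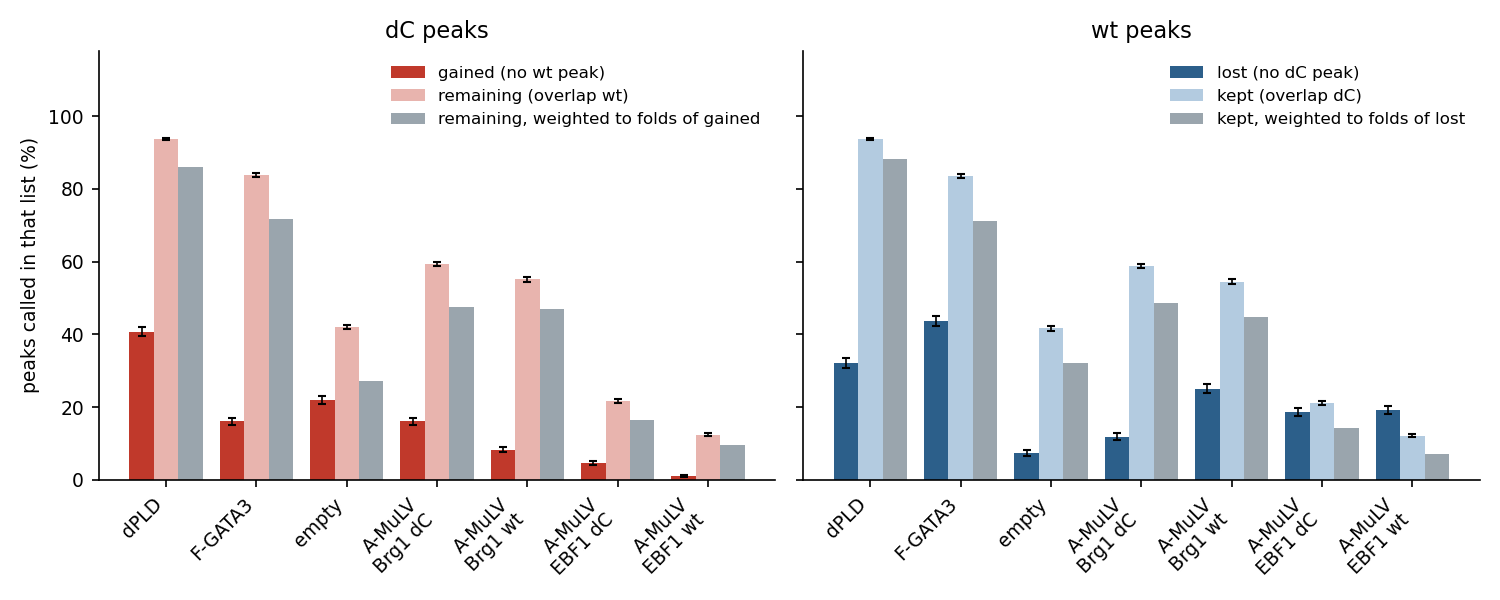
Share of peaks, in percent, that are also called in each of 7 other lists, for gained and remaining dC peaks (left) and lost and kept wt peaks (right). Error bars are exact 95% intervals, and gray bars weight the peaks overlapping the other list to the folds of the gained or lost ones. Gained peaks stand at 40.7% in dPLD and 16.1% in F-GATA3, and lost peaks at 32.1% and 43.7%.

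Of the immunoglobulin loci, Igk had by far the most lost peaks. Across the locus (chr6:67555636-70726754) the dC list had 28 Brg1 peaks and the wt list 141, with 113 lost, 28 kept and 0 gained. The count was 69 with dPLD, 108 with F-GATA3 and 2 without EBF1 (empty). Wild-type EBF1 thus had the most peaks, followed by F-GATA3, dPLD, dC and the empty vector in that order. In A-MuLV cells, which are labelled pro-B with either form, Igk held 17 Brg1 peaks with dC and 195 with wt. The kept wt peaks of Igk were the stronger ones, with a median fold of 11.9 against 7.51 for the lost ones. Of the 113 lost peaks, 73 were called with F-GATA3 and 40 with dPLD, while 37 were called with neither. In A-MuLV cells, 3 of the 113 met a dC Brg1 peak and 74 a wt Brg1 peak, and 8 met an EBF1 peak with dC and 42 with wt.

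Of the 113 lost Igk peaks, 58 overlapped a variable (V) segment, which recombination joins to a J segment, or a V pseudogene segment, and of the 28 kept ones 16 did. Of 102 annotated Igk V segments, 14 overlapped a dC peak and 64 a wt peak, and no V segment had a dC peak alone. The dPLD list covered 30 of them, the F-GATA3 list 47 and the empty list 0. Of 60 V pseudogene segments, 0 overlapped a dC peak and 10 a wt peak. The longest unbroken run of lost peaks in the genome lay in Igk, with 43 consecutive wt peaks over 769.4 kb (chr6:68894202-69663636). Igk held 2.35% of all lost peaks, and without it 4695 of 29213 wt peaks (16.1%) were lost.

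**Figure D3:**
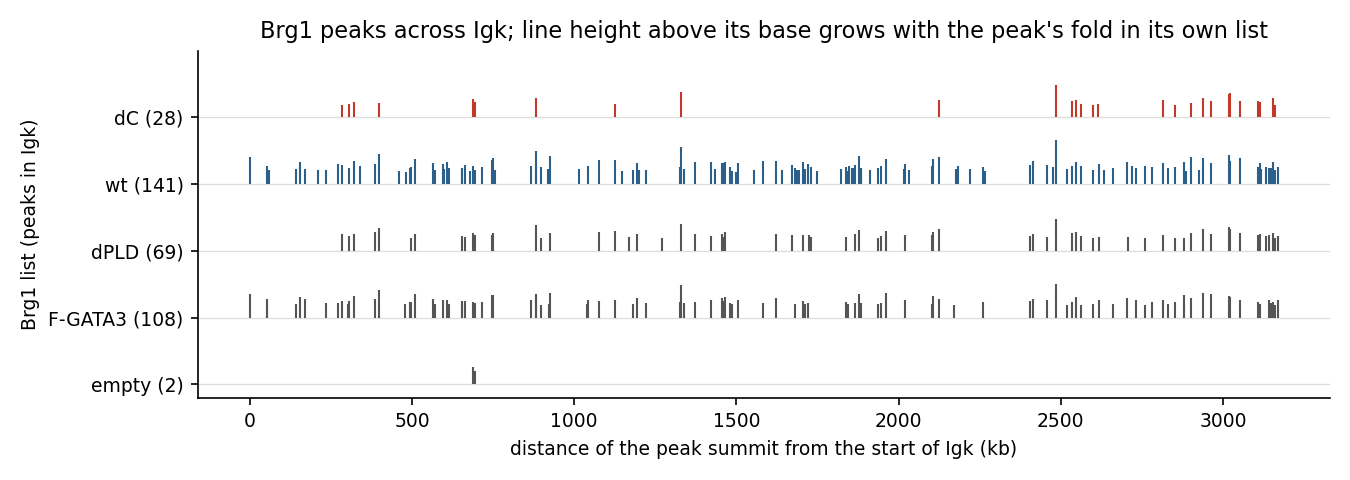
Brg1 peaks across Igk in the 5 fetal liver lists, by distance of the summit from the start of the locus in kb. Each line is a peak, and its height grows with the peak's fold within its own list. The dC track has 28 peaks, the wt track 141 and the empty track 2.

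Igh showed no such loss. It held 129 dC and 111 wt peaks (chr12:113258768-116009954), with 9 lost and 31 gained. Over all peaks, 16.4% of wt peaks were lost and 20.8% of dC peaks gained, so the gained share of Igh was near that of all dC peaks. Of 121 Igh V segments, 54 overlapped a dC peak and 41 a wt peak. The gained Igh peaks included one of the 15 with the highest fold, at chr12:115833434-115834330 with a dC fold of 14.4, which the dPLD, F-GATA3 and empty lists also held. In A-MuLV cells Igh held 186 Brg1 peaks with dC and 172 with wt. The lambda light chain locus, Igl, held 11 dC and 12 wt peaks.

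Runs of 5 or more consecutive lost peaks numbered 54 and held 380 peaks, of which 8 runs with 103 peaks touched Igk. Outside Igk, the longest was at Sdk2, which encodes a cell adhesion protein, with 13 peaks. A run of 12 lost peaks over 448.5 kb crossed the Ms4a genes (chr19:11092122-11540664), a family of membrane proteins that includes Ms4a1, the gene of CD20. The span of all 21 Ms4a genes extended by 10 kb held 6 dC and 17 wt peaks. It held 7 peaks with dPLD, 15 with F-GATA3 and 2 without EBF1 (empty). The strongest lost peak of the run lay 4630 bp from Ms4a1 (wt fold 16.5, chr19:11244012-11245049), and Ms4a1 had 0 dC peaks, 3 wt peaks, 2 with dPLD and 4 with F-GATA3. Runs of gained peaks were fewer and shorter, with 32 runs and 176 peaks. The longest, of 9 peaks, lay 292509 bp from Jarid2, and a run of 7 crossed Prf1, the perforin gene, and Pald1.

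Among single peaks, the 15 lost peaks of highest wt fold, taken once per nearest gene, ran between 16.4 and 20.2. Their nearest genes included Stox2, Nxph1, Agbl1, Nkd2, Auts2, Irx6, Icosl, Ccl1, Rpia, Clstn1, Lrig2, Cntnap5c, Ms4a1 and Wwc1. Of the 15 peaks, 7 lay inside a gene body, and the distance reached 132909 bp at Irx6 and 1332368 bp at Rpia. The gene names therefore only locate the peaks. Nkd2 encodes an inhibitor of Wnt signalling, Icosl the ligand of a T-cell costimulator and Ccl1 a chemokine. The Icosl peak is the one at the Gm30039 promoter, and the Rpia peak lies inside Igk. The Clstn1 peak (chr4:149640658-149642797, wt fold 16.7) also lies within 10 kb of Pik3cd, which encodes the delta catalytic subunit of PI3 kinase. All 15 were called with F-GATA3, 12 with dPLD and 0 with the empty vector. Of all kept wt peaks, 83.6% were called with F-GATA3, 93.7% with dPLD and 41.7% with the empty vector. Kept peaks of like fold were not counted. In A-MuLV cells, 4 of the 15 met a Brg1 peak with dC and 12 with wt, and 7 met an EBF1 peak with dC and 10 with wt. At Auts2 the A-MuLV EBF1 wt peak reached a fold of 30.3 in its own list, and at Stox2, Irx6, Cntnap5c, Ms4a1 and Wwc1 no EBF1 peak of either form was called.

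The 15 gained peaks of highest dC fold ran between 14.0 and 17.2. They were nearest to Ackr3, Adamts14, Ankrd55, Car12, Chl1, Crtc3, Hs6st1, Krtap13, Rab11fip5, Slc44a5, Syndig1, Tgm2, Wnt5b, Xrcc2 and Zfp386. Of these peaks, 6 lay inside a gene body, and the distance reached 152478 bp at Ackr3 and 381674 bp at Hs6st1. Chl1 encodes a neural cell adhesion molecule, Ackr3 an atypical chemokine receptor, Tgm2 a transglutaminase and Wnt5b a Wnt ligand. The Zfp386 peak lies inside Igh. Of the 15, 14 were called with dPLD, 8 with F-GATA3 and 6 without EBF1 (empty). None met an EBF1 peak, while 2 met an A-MuLV Brg1 peak with dC and 1 with wt.

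At the level of genes, 4236 of 21887 protein-coding genes (19.4%) had a gained peak within 10 kb and 3170 (14.5%) a lost one. The genes with most lost peaks were Tenm4, Inpp4b, Tmem108, Nav2, Tns3, Arid1b, Asic2, Cldn14, Dab2ip and Gse1, with between 7 and 11 each. Tenm4, which encodes a teneurin adhesion protein, had 2 dC and 13 wt peaks, and 6 with dPLD, 10 with F-GATA3 and 3 without EBF1 (empty). Inpp4b, which encodes a phosphatidylinositol phosphatase, had 5 dC and 14 wt peaks. Nav2 had 7 dC and 15 wt peaks, and 15 with F-GATA3. In Gse1 loss and gain nearly balanced, with 29 dC and 30 wt peaks.

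The genes with most gained peaks were Hivep3, Mta3, Foxp1, Kcnma1, Tmtc1, Maml3, Alpk2, Antxr1, Bach2 and Chst11, with between 7 and 11 each. Mta3, which encodes a subunit of the NuRD remodelling complex, had 14 dC and 5 wt peaks, with 9 in dPLD, 6 in F-GATA3 and 10 in the empty list. Bach2, a repressor that acts in B-cell and lymphoid progenitors, had 14 dC and 8 wt peaks, and 16 with the empty vector. Kcnma1, which encodes a potassium channel, had 15 dC and 6 wt peaks and 0 with the empty vector. Maml3 encodes a Notch coactivator and had 19 dC and 12 wt peaks. Foxp1, a factor of early B-cell development, had the most peaks of the 10, with 32 dC and 27 wt peaks. Gene length was not corrected for in these counts.

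**Figure D4:**
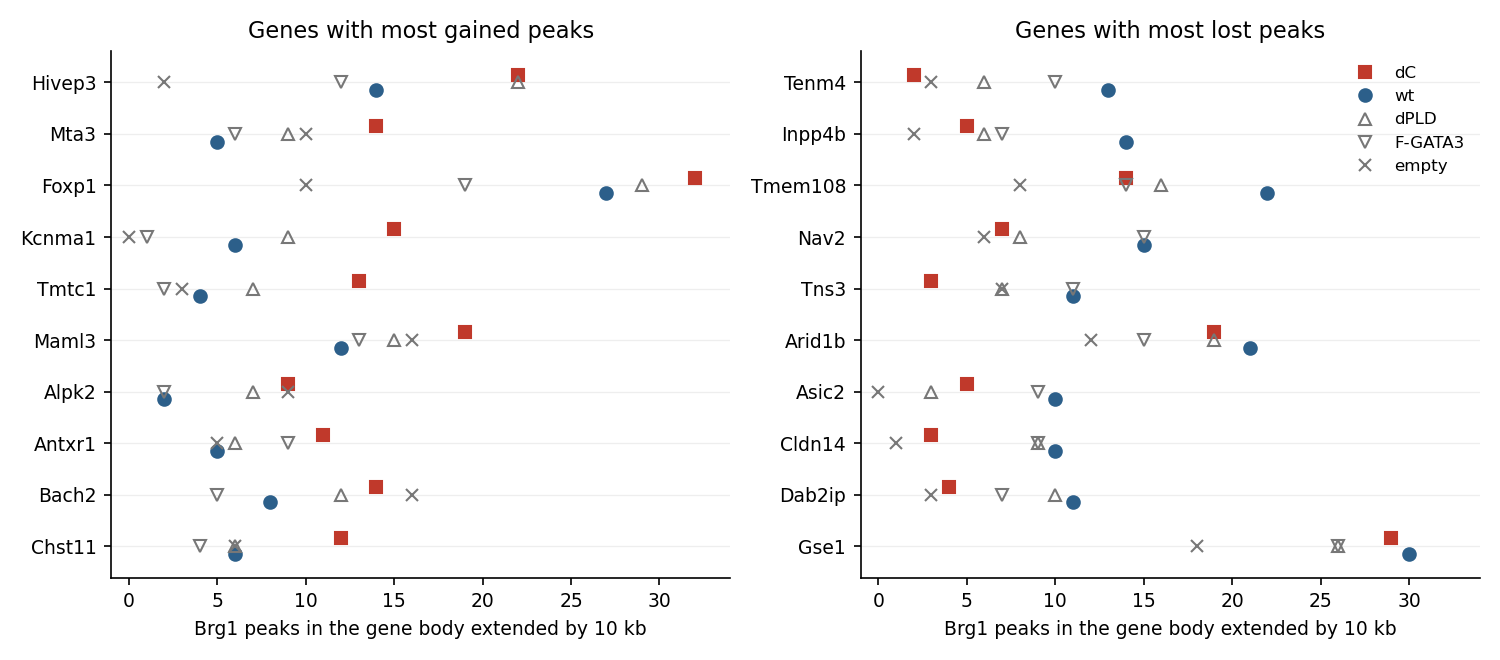
Number of Brg1 peaks in the gene body extended by 10 kb, in each of the 5 fetal liver lists, for the 10 genes with most gained peaks (left) and most lost peaks (right). Squares are dC and circles wt, and open symbols and crosses the other lists. Mta3 has 14 dC and 5 wt peaks, and Tenm4 has 2 dC and 13 wt peaks.

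Of 4558 genes with 3 or more wt peaks, 25 (0.548%) had 0 dC peaks. Agbl1 and Nuak1 had 6 wt peaks each, and Bean1, Gm8369 and Stox2 had 5. Ms4a1, Ms4a6b, Thy1, a surface glycoprotein of T cells, and Il33, a cytokine gene, had 3 each. Of the 25, 22 had a peak with F-GATA3, 14 with dPLD and 9 with the empty vector. Conversely, of 4794 genes with 3 or more dC peaks, 16 (0.334%) had 0 wt peaks. Pald1 had 5 dC peaks, and Atp8b4, Ddr1 and Kdr, the gene of a VEGF receptor, had 4. Mpeg1, a perforin-like gene of macrophages, Itgad, an integrin gene, and Nrp1 had 3. Of the 16, 13 had a peak with dPLD, 12 with the empty vector and 7 with F-GATA3. These genes were chosen by their dC and wt counts, so only the other lists add to the description. The share of all genes with 3 or more peaks that had a peak in those other lists was not counted. The counts therefore describe the 25 and 16 genes alone.

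B-lineage transcription factors lost and gained Brg1 peaks in about the shares seen over all peaks. Of the 20 genes, 10 had a gained peak and 12 a lost one, with 23 of 130 dC peaks gained (17.7%) and 23 of 135 wt peaks lost (17.0%). At a −log10 q of at least 20, 4 of the genes had a gained peak and 1 a lost one. All 20 held peaks in both lists, so shares of peaks and not of genes are set beside the 20.8% gained and 16.4% lost over all peaks. In these list counts a peak near 2 members counts for each. Ebf1 itself held 13 dC and 13 wt peaks, of which 4 were gained and 4 lost. The strongest gained peak of Ebf1 (chr11:44945058-44946463, dC fold 12.8) and its strongest lost peak (chr11:44765028-44765653, wt fold 10.5) lie inside the gene. Another gained peak (chr11:44619123-44621005, dC fold 5.71) covers an annotated Ebf1 promoter. The vectors carry EBF1 coding sequence, so reads over Ebf1 exons may come from the vector or the gene, and these cannot be told apart.

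The other loss-rich members of that list were Tcf3, Ikzf3 and Tcf4, each with 3 lost peaks. Tcf3, which encodes the E proteins E12 and E47, had 5 dC and 7 wt peaks and 0 gained. Ikzf3, which encodes Aiolos, had 7 dC and 9 wt peaks, with none in the empty list. Pax5, the commitment factor of B cells, had 7 dC and 10 wt peaks, with 2 lost and 0 gained. Bcl11a, a factor of lymphoid progenitors, had 4 dC and 2 wt peaks and 0 lost. Id3, an inhibitor of E proteins, had 4 dC and 3 wt peaks, and its gained peak had a dC fold of 7.42.

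The pre-B-cell receptor and its signalling genes held 120 dC and 120 wt peaks, with 17 gained (14.2%) and 13 lost (10.8%) over 8 and 10 of 20 genes. Igll1, which encodes the surrogate light chain component lambda 5, had 1 dC and 4 wt peaks and 0 gained. Its neighbour Vpreb1 had 1 dC and 3 wt peaks. The adaptor gene Lat2 had a lost peak of wt fold 7.10. Gained peaks were strongest at Syk (dC fold 7.07), the kinase of the receptor, at Plcg2 (6.80), a phospholipase, and at Lyn (6.54), a Src-family kinase with 9 dC and 6 wt peaks.

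B-cell surface receptors had few gained peaks, 6 of 63 dC peaks (9.52%, 3.58 to 19.6%) against 20.8% of all dC peaks, while 12 of 70 wt peaks were lost (17.1%, 9.18 to 28.0%), close to the 16.4% of all wt peaks. Besides Ms4a1, Ly6d, a marker of B-cell-biased lymphoid progenitors, kept no peak, with 0 dC peaks and 1 weak wt peak (fold 5.01). Cxcr5 and Cxcr4, both chemokine receptors, each lost 1 strong peak (wt fold 12.1 and 10.3). Ccr7, another chemokine receptor, had 7 dC and 5 wt peaks and a gained peak of dC fold 5.54, and Cd69 gained 2 peaks. Genes of V(D)J recombination had 2 of 27 dC peaks gained (at Dntt and Xrcc6) and 2 of 27 wt peaks lost (at Xrcc4 and Dclre1c), or 7.41% each, with an interval of 0.91 to 24.3% that includes both shares over all peaks. Rag1, a recombinase gene, held 1 dC and 1 wt peak, and they overlapped.

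Genes of IL-7 receptor signalling and survival had 11 of 78 dC peaks gained (14.1%, 7.26 to 23.8%) and 6 of 74 wt peaks lost (8.11%, 3.03 to 16.8%), and both intervals include the shares over all peaks. Bcl2, which blocks cell death, had 11 dC and 6 wt peaks, with 5 gained (highest dC fold 9.39) and 0 lost. Socs3, an inhibitor of cytokine signalling, gained 2 peaks (highest dC fold 8.13), and lost peaks were strongest at Il2rg (wt fold 7.10) and Socs2 (6.19). Il7r held 2 dC and 2 wt peaks, all kept. Cell cycle genes had 13 of 64 dC peaks gained (20.3%), close to the 20.8% over all dC peaks, and 4 of 64 wt peaks lost (6.25%, 1.73 to 15.2%), below the 16.4% over all wt peaks. Cdk6, a kinase of G1 phase, had 9 dC and 6 wt peaks, with 4 gained (highest dC fold 11.2), and Ccnd3 gained 3 (8.79). Lost peaks were strongest at E2f2 and Ccnd1 (wt fold 6.07 and 6.01).

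Among the lists for other lineages, the myeloid genes had the highest share of gained peaks. They had 13 of 32 dC peaks gained (40.6%, 23.7 to 59.4%), against 20.8% of all dC peaks, and 1 of 21 wt peaks lost, at Cd14 (wt fold 6.92). Of 18 myeloid genes 7 had a gained peak, among them Csf2ra and Csf2rb, chains of the GM-CSF receptor, with highest dC folds of 9.56 and 6.28, and Cebpb (7.93), a myeloid transcription factor. Lyz2, the macrophage lysozyme gene, had 2 dC and 0 wt peaks. The same genes held 26 peaks with dPLD, 16 with F-GATA3 and 27 without EBF1 (empty). More myeloid cells in a culture and more Brg1 at these genes per cell cannot be told apart in bulk libraries.

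Erythroid and megakaryocyte genes had 9 of 29 dC peaks gained (31.0%, 15.3 to 50.8%) and 2 of 25 wt peaks lost. Gp9, of the platelet glycoprotein complex, had a gained peak of dC fold 6.94 at its promoter. Itga2b, an integrin of megakaryocytes, gained 2 peaks (highest dC fold 7.46) and lost 1 (wt fold 9.27). The other lost peak was at Klf1, an erythroid transcription factor (3.79). Progenitor genes had 12 of 47 dC peaks gained (25.5%, 13.9 to 40.4%) and 4 of 38 wt peaks lost. Runx1, a factor of blood stem cells, had 14 dC and 10 wt peaks, and Tal1 and Zfpm1 gained 1 each (dC fold 6.16 and 6.25), while Meis1 lost 2 peaks (highest wt fold 6.50) and Flt3, a growth factor receptor gene with 8 dC and 6 wt peaks, lost 1 (6.37).

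T-lineage genes had 11 of 43 dC peaks gained and 11 of 43 wt peaks lost, or 25.6% each (13.5 to 41.2%). Gains were strongest at Lck (dC fold 9.94) and at Notch3 (7.29), a Notch receptor with 5 dC peaks, 1 wt peak and 5 with the empty vector. Losses were strongest at Thy1 (wt fold 9.64), Dtx1, a Notch pathway regulator (8.65), Tcf7, the gene of TCF1 (8.37), and Cd5 (8.34). Innate lymphoid and NK genes had few peaks, with 1 of 16 dC peaks gained (6.25%, 0.158 to 30.2%), at Prf1 (dC fold 5.75), and 2 of 18 wt peaks lost (11.1%, 1.38 to 34.7%), at Tox and Id2 (wt fold 5.98 and 5.92).

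Genes of BAF and PBAF subunits had 11 of 83 dC peaks gained (13.3%, 6.81 to 22.5%) and 8 of 78 wt peaks lost (10.3%, 4.53 to 19.2%), and both intervals include the shares over all peaks. Arid1b held 7 of those 8 lost peaks (highest wt fold 8.41) and 5 of the gained ones (6.74), and Smarca2, the other BAF ATPase gene, had the eighth. Smarcc1 had the next highest gained peak (dC fold 5.75). Smarca4, the gene of Brg1, held 6 dC and 5 wt peaks, and none was lost or gained. Ubiquitously expressed genes had 8 of 42 dC peaks gained, highest at Rplp0 and Eef1a1 (dC fold 7.07 and 5.93), and 1 of 34 wt peaks lost (2.94%, 0.0744 to 15.3%), at Actb (wt fold 4.35). The single gained stromal peak was at Thbs1 (4.99), and 0 of 4 stromal wt peaks were lost.

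**Figure D5:**
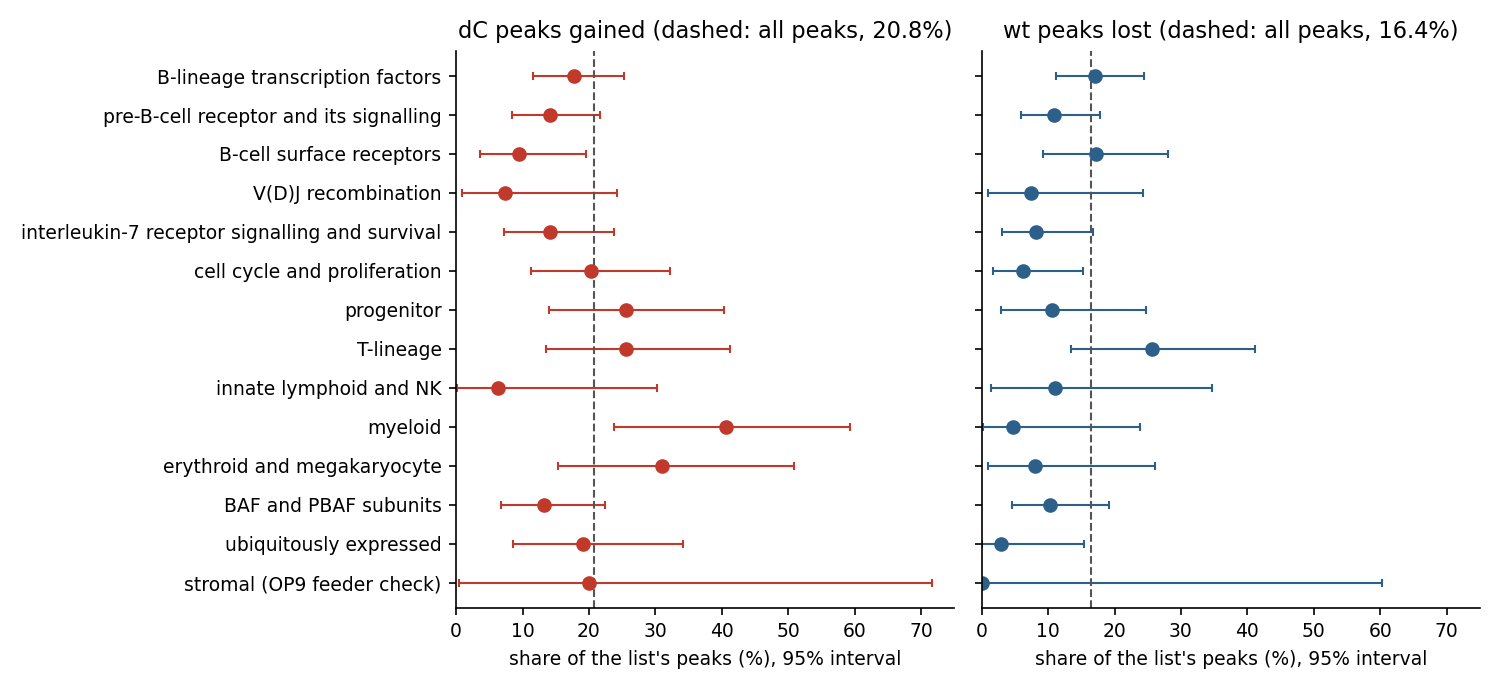
Share of the dC peaks of each gene list that were gained (left) and of its wt peaks that were lost (right), in percent with exact 95% intervals. Dashed lines give the share over all peaks, 20.8% gained and 16.4% lost. The interval lies above the line for gained peaks in the myeloid list (40.6%), and below it for gained peaks in the B-cell surface list (9.52%) and for lost peaks in the cell cycle (6.25%) and ubiquitous (2.94%) lists. The other intervals include the line. The intervals hold counting error alone and treat peaks of the same gene as separate, so a place above or below the line is not a test.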

How the data were processed

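Brg1 ChIP-seq peaks of fetal liver progenitors with EBF1 dC and with EBF1 wt were compared, with 7 other lists beside them. Per the submitters' processing notes, peaks lie on GRCm38 and the tools were MACS2 2.1.2, Bowtie2 2.3.3.1, deepTools 3.3.1 and SAMtools 1.9. Peak thresholds and which control MACS2 used are not given in the sources used for this comparison. Fold enrichment is the authors' ratio at the summit, used only within 1 list. The deposited −log10 p and −log10 q values belong to each peak, and in the dC and wt lists the score column, as deposited, holds the same −log10 q times 10 without decimals. Depth is unknown. In both fetal liver lists no peak had a −log10 q below 10.0.

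Peaks shared at least 1 bp to count as overlapping, and 16 dC and wt peaks on unplaced scaffolds were left out. Shares carry exact 95% intervals (scipy 1.17.1), and overlap and motif search were tested on simulated data. Kept or remaining peaks were also weighted to the folds of lost or gained peaks in 10 bins, a choice made after seeing the data. Genes came from a RefSeq table for GRCm38.p6, without strand or exons. All 240 members of the 14 gene lists matched. Members and lists were chosen with earlier results of these data known.

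Genes were named by a rule. They are those nearest the 15 strongest lost and gained peaks, the 10 genes with most of each, 2 to 4 members per list with the highest folds, B-lineage members with 3 or more lost peaks or none kept, and Ebf1, Smarca4, Igk and Igh. Some genes under this rule are not reported here. Promoters, runs, genes with 0 peaks in 1 list, markers and remaining genes were chosen after their values were seen. The 15 motifs were searched in promoter windows only, since no genome sequence was used here.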

Additional observations from a re-analysis of the deposited data

Results flagged for a closer look

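The total of Brg1 peaks and 4 of the gene lists moved one way between dC and wt in fetal liver cells and the opposite way in A-MuLV cells, with 1 library a side, and these differences were not tested. Over all peaks, dC minus wt was 947 in fetal liver cells (30301 dC and 29354 wt) and -73 in A-MuLV cells (24420 dC and 24493 wt). For IL-7 receptor signalling and survival genes it was 4 in fetal liver cells (78 dC and 74 wt) and -14 in A-MuLV cells (85 dC and 99 wt). For innate lymphoid and NK genes it was -2 in fetal liver cells (16 dC and 18 wt) and 3 in A-MuLV cells (9 dC and 6 wt). For erythroid and megakaryocyte genes it was 4 in fetal liver cells (29 dC and 25 wt) and -9 in A-MuLV cells (15 dC and 24 wt). For BAF and PBAF subunit genes it was 5 in fetal liver cells (83 dC and 78 wt) and -17 in A-MuLV cells (80 dC and 97 wt). At Igk the sign was the same in both, at -113 in fetal liver cells and -178 in A-MuLV cells. The A-MuLV Brg1 lists include peaks down to a −log10 q of 1.33 (dC) and 1.37 (wt), against 10.0 in the fetal liver lists, and fixation used 1% formaldehyde in A-MuLV and 2% in fetal liver cells. The part of these unlike lists in the differences was not tested.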

How the results depend on the processing

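No paired analysis was possible because each group had 1 library, and no replicate could be left out. No difference between dC and wt has a replicate check, and peak lists without depth do not show where Brg1 is absent. With a −log10 q of at least 20 in the list counted, 1145 peaks were gained (6.13%) and 1215 lost (6.76%), so the order of the counts turned. With that minimum in both lists, 4153 were gained (22.2%) and 3287 lost, which is 18.3% of the shorter wt list. With lists of equal length the gained share was 19.2% and the lost share 17.4%. With summits required within 200 bp, 29.8% were gained and 8085 lost (27.5%), and with no peak allowed within 1 kb, 18.9% were gained and 15.1% lost. An overlap of 50% of the shorter peak, or leaving out Igk (added after seeing the data), moved none of these 4 values beyond its counting interval.

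Among gained peaks with a −log10 q of at least 20, 72.0% were called with dPLD, 24.3% with F-GATA3, 31.1% with the empty vector, 25.8% in A-MuLV Brg1 dC, 9.43% in A-MuLV Brg1 wt and 7.25% in EBF1 dC. Among such lost peaks, 77.9% were called with F-GATA3, 50.8% with dPLD and 6.01% with the empty vector. Of these lost peaks, 16.5% were called in A-MuLV Brg1 dC, 43.9% in A-MuLV Brg1 wt, 32.8% in EBF1 dC and 39.2% in EBF1 wt. Remaining dC and kept wt peaks were not counted at this minimum, so these shares have no like comparison. Without the minimum, remaining dC peaks stood at 93.7% in dPLD, 83.9% in F-GATA3 and 42.1% in the empty list. Kept wt peaks stood at 83.6% in F-GATA3, 93.7% in dPLD, 41.7% in the empty list, 21.1% in EBF1 dC and 12.2% in EBF1 wt. The part of peak strength in these shares was not tested.

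Genes with a gained peak numbered 8280 within 50 kb, 2605 with the gene body alone and 829 at the higher −log10 q, and genes with a lost peak 6432, 2075 and 831. At that −log10 q Igk held 17 dC peaks, against 99 wt peaks, and Igh held 80 dC and 66 wt peaks. At that −log10 q, a gained peak lay near 0 B-cell surface, 2 myeloid and 2 T-lineage genes, and a lost peak near 3, 0 and 4 of them. Of 84 alternative counts by gene list, 24 stayed within 1.5 times.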
